A study of Homo sapiens with 4 samples.

Results

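The H3K27ac peaks at 10 genes of the LIN28 and let-7 axis and of microRNA (miRNA) production were examined in neuroblastoma (NB) cells with and without depletion of *SNHG1*. The genes were *LIN28A*, *LIN28B*, *IGF2BP1*, *IGF2BP2*, *IGF2BP3*, *HMGA1*, *HMGA2*, *MIR17HG*, *DICER1* and *DROSHA*. A peak was taken as a member if it overlapped the GENCODE body of one of these genes or the 10 kb on either side of it, called the window of the gene here. By this rule 22 of 63699 peaks of control cells (sgCtrl) and 25 of 50119 peaks of *SNHG1*-depletion cells (sgSNHG1) were members.

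The study asked how loss of the long noncoding RNA *SNHG1* changes the chromatin of NB cells. SK-N-BE(2)C is a human NB cell line with amplified *MYCN*, and both groups were made from it by transfection of Cas9 with guide RNAs, puromycin selection and sorting of single cells into clones. sgCtrl received a non-targeting guide RNA and carries the wildtype genotype in the labels, sgSNHG1 received guide RNAs against the *SNHG1* locus, and the sources do not name the clone that was used for the ChIP-seq. Chromatin was precipitated with an antibody to H3K27ac (acetylated histone H3, found at active promoters and enhancers) in 2 samples per group, and the reads of both samples of a group were combined before peaks were called.

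Each group therefore has 1 list of peaks and no value per sample, so no difference could be set against a spread between replicates and nothing was tested. Every comparison is a description of these 2 lists. The depth per sample is unknown. At the targeted gene, 1 sgCtrl peak and 0 sgSNHG1 peaks overlapped the body of *SNHG1*, counted with no flank. Of all sgCtrl peaks, 38.5% had no overlapping sgSNHG1 peak, so this count is no measure of the depletion. All 10 markers of NB cells of the adrenergic kind had a peak in both lists, beside 24055 of 38726 windows of coding and long noncoding genes. They had 56 peaks in sgCtrl and 43 in sgSNHG1, and the sgSNHG1 list was also shorter, with a ratio of 0.787 over all peaks. Of 6 markers of other cell types, *CD3E* and *PTPRC* had a peak in both lists and the other 4 (*ALB*, *HBB*, *KRT5* and *MYH7*) had none in either.

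miRNAs are cut from long primary transcripts by DROSHA in the nucleus and from the resulting hairpins by DICER1 in the cytoplasm. LIN28A and LIN28B bind let-7 precursors and block this maturation, and let-7 in turn represses the mRNAs of *LIN28B*, *HMGA2*, *IGF2BP1* and other oncofetal genes. LIN28B is known in NB for raising MYCN through loss of let-7. *MIR17HG* is the host gene of the miR-17-92 cluster, a group of oncogenic miRNAs that MYC proteins are known to activate. The 3 IGF2BP proteins bind and stabilise mRNAs, and HMGA1 and HMGA2 are architectural proteins that bind AT-rich DNA.

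The sequences on which this axis turns are the mature miRNAs. Those of the miR-17-92 cluster lie on the plus strand of chromosome 13, within chr13:91350605-91351391 (GRCh38.p14, RefSeq), where the 6 hairpins span 787 bp of the *MIR17HG* transcript. They are shown from 5′ to 3′ with the seed, bases 2 to 8, in capitals.
hsa-miR-17-5p: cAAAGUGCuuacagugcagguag
hsa-miR-20a-5p: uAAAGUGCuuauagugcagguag
hsa-miR-18a-5p: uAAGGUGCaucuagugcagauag
hsa-miR-19a-3p: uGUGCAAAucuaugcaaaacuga
hsa-miR-19b-3p: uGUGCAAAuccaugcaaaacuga
hsa-miR-92a-3p: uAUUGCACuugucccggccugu
hsa-let-7a-5p: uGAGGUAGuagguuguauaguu
The 6 miRNAs of the cluster carry 4 different seeds, since miR-17 and miR-20a share one, and miR-19a and miR-19b share another. The 12 let-7 loci, miR-98 included, encode 9 distinct mature sequences that all have the seed shown for let-7a.

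Promoter sequences of 250 bases before a RefSeq start (GRCh38.p14) were found for 7 of the 10 genes and cover 14 starts. *LIN28A*, *IGF2BP1* and *HMGA2* are named only. The sequences shown are those beside the highest peaks and that of the third start of *LIN28B*, where a peak was called in sgSNHG1 only. They are written from 5′ to 3′ on the strand of the gene, with each E-box CACGTG, the motif that MYC proteins are known to bind, in capitals.
MIR17HG, chr13:91347437-91347686, plus strand: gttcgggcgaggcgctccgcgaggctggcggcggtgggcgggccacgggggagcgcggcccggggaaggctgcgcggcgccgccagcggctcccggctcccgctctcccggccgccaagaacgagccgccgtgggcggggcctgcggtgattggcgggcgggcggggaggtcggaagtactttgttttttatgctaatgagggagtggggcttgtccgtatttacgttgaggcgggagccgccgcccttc
DICER1, chr14:95157530-95157779, minus strand: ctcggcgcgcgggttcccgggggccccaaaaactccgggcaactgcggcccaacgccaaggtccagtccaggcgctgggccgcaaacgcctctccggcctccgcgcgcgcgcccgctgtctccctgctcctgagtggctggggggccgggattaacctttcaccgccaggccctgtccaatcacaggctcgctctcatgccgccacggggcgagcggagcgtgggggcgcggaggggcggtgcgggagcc
LIN28B at the RefSeq start 104940965, chr6:104940715-104940964, plus strand: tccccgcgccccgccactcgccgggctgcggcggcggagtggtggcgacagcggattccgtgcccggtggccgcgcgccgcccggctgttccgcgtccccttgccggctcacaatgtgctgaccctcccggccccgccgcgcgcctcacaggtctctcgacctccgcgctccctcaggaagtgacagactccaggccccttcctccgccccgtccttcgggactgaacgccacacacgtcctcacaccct
LIN28B at the third start, chr6:104956857-104957106, plus strand: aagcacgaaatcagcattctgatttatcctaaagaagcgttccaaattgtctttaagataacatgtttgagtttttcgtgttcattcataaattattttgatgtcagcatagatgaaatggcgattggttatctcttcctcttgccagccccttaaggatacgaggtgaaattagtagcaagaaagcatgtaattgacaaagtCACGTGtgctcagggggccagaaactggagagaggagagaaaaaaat
IGF2BP3, chr7:23470492-23470741, minus strand: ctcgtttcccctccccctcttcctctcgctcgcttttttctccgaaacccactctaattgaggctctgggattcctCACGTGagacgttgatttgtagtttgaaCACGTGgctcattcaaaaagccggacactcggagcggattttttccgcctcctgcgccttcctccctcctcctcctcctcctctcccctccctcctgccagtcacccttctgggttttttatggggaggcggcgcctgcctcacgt
HMGA1, chr6:34236623-34236872, plus strand: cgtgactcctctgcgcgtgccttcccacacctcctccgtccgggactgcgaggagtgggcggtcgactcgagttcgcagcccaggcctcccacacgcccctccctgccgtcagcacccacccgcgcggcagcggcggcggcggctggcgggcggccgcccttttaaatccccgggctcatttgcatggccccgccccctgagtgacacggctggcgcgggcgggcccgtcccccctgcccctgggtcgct
The RefSeq start 104940965 of *LIN28B* stands for its second GENCODE start, 104940866, which lies within the stretch shown. The palindrome CACGTG was present 2 times before *IGF2BP3*, with its first base at -174 and -146 from the start, and 1 time before the third start of *LIN28B*, at -47. That is 2 of 14 member promoters (14.3%), beside 6.34% of 35116 RefSeq promoters of the same length. A match describes these letters and is not a binding site. Of the 14 starts, 11 had a peak of either list within 1 kb, and the GC content of their 250 bases ranged from 38.4% at the third start of *LIN28B* to 81.6% at *IGF2BP2*. The other 3 starts, alternative starts inside *DICER1* and *IGF2BP2*, had a GC content of 32.8% to 38%.

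The ratio of sgSNHG1 to sgCtrl peaks was 1.14 at the 10 genes (25 against 22) and 0.787 over all peaks. Peaks covered 15237 bp in sgCtrl against 15391 bp in sgSNHG1, and this ratio of 1.01 stood beside 0.768 over all peaks. The mean fold enrichment of these peaks, the height of the summit over its local background, was 5.72 in sgCtrl and 5.28 in sgSNHG1. Over all peaks the mean was 4.47 in sgCtrl and 4.68 in sgSNHG1. The size and direction of the peak number ratio depended on the setting. It was 1.79 with lists of equal size (25 against 14 peaks) and 1.64 at a −log10 p of at least 10 (23 against 14), but 0.972 with windows of 50 kb (35 against 36) and 0.9 with peaks within 1 kb of each other merged (18 against 20).

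By gene, sgSNHG1 had more peaks in 5 windows, fewer in 3 and as many in 2. More peaks were found at *LIN28A* (1 in sgCtrl, 2 in sgSNHG1), *LIN28B* (3 and 4), *HMGA1* (5 and 7), *DICER1* (1 and 3) and *DROSHA* (1 and 2). Of the *HMGA1* peaks in sgSNHG1, 2 overlapped the same sgCtrl peak. Fewer were found at *IGF2BP1* (2 and 0), *IGF2BP3* (5 and 4) and *HMGA2* (1 and 0). *IGF2BP2* had 2 peaks and *MIR17HG* 1 peak in each list. Among all 27404 gene windows with a peak in either list, 18.5% had more peaks in sgSNHG1 and 43.9% had fewer.

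Most member peaks were found in both lists. Of the 22 sgCtrl peaks, 17 (77.3%, 95% Wilson interval 56.6% to 89.9%) had a partner in sgSNHG1, meaning a shared stretch of 1 bp or more, and of the 25 sgSNHG1 peaks, 18 (72%, 52.4% to 85.7%) had one in sgCtrl. These intervals, like all others here, cover counting error only. The share without a partner was thus 5 of 22 sgCtrl peaks, beside 38.5% of all sgCtrl peaks, and 7 of 25 sgSNHG1 peaks, beside 20.8% of all sgSNHG1 peaks. Both background shares lie inside the range that the intervals leave for the members.

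The height of each peak was also expressed as its pileup, meaning how many sequenced fragments cover the summit, which can be recovered from the deposited fold enrichment and p-value. Where an sgCtrl and an sgSNHG1 peak overlapped, the ratio of their pileups was divided by 0.871, the median ratio over all 38601 pairs. A relative pileup of 1 therefore means that a peak changed as the median pair did. The counting interval of a ratio is exact (Clopper-Pearson, 95%). Since the authors kept duplicate fragments, the intervals are narrower than independent molecules would give.

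The 6 genes with the highest peaks were the same in both groups. *MIR17HG*, *DICER1* and *LIN28B* held ranks 1, 2 and 3 in both lists, *IGF2BP3* and *HMGA1* shared ranks 4 and 5 in opposite order, and *IGF2BP2* was at rank 6 in both. Below them, *LIN28A* was at rank 7 in sgCtrl and 8 in sgSNHG1 and *DROSHA* at rank 10 and 7, while *IGF2BP1* and *HMGA2*, at ranks 8 and 9 in sgCtrl, had no sgSNHG1 peak. Fold enrichment is read here as its percentile within its own list. The lists' own levels differed little, with a median fold enrichment over all peaks of 3.75 in sgCtrl and 3.89 in sgSNHG1.

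**Figure D1:**
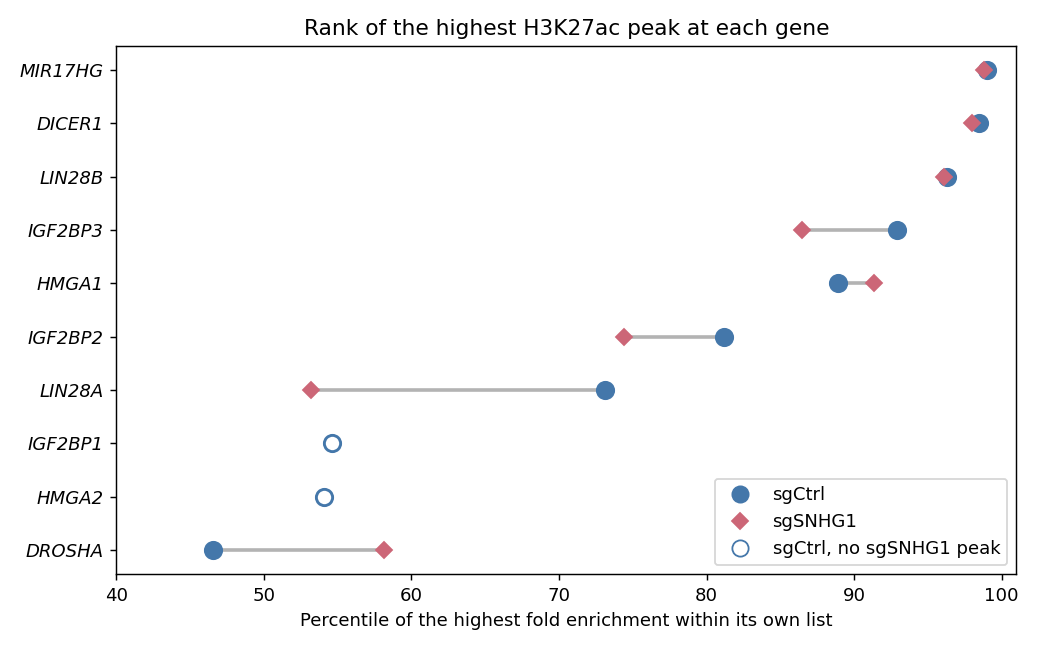
Percentile of the highest fold enrichment at each gene among all peaks of its own list (horizontal axis), for sgCtrl (circles) and sgSNHG1 (diamonds), with the genes ordered by the sgCtrl value. Open circles are *IGF2BP1* and *HMGA2*, which had no sgSNHG1 peak, and the 3 highest genes differ by less than 1 percentile between the lists whereas *LIN28A* and *DROSHA* differ by more than 10.

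*MIR17HG* had the highest peak of the 10 genes. It lay just inside the start of the host gene, at chr13:91347705-91348975 in sgCtrl and chr13:91347698-91348975 in sgSNHG1. Its fold enrichment was 14.4 in both lists, at percentile 99.0 in sgCtrl and 98.8 in sgSNHG1. The pileup was 383 fragments in sgCtrl and 398 in sgSNHG1, a relative pileup of 1.19 (interval 1.03 to 1.38). The peak spanned 4 annotated starts and ended 1630 bp before the first hairpin in both lists, so the miRNA hairpins themselves carried no peak. The pairs within 5 Mb of *MIR17HG* had a median of -0.16 on the log2 scale, and the *MIR17HG* pair was at 0.25.

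*DICER1*, the cytoplasmic miRNA endonuclease, had the next highest peak. The main peak, at chr14:95156612-95157455 in sgCtrl and chr14:95156601-95157487 in sgSNHG1, had its summit at the same base in both lists, 835 bp inside the first start. Its fold enrichment was 13.1 and 13.0, and its pileup 224 and 248 fragments, a relative pileup of 1.27 (1.06 to 1.53). A start of *DICER1-AS1* lay 470 bp from the summit of the main peak in both lists, so the mark cannot be assigned to *DICER1* alone. The sgSNHG1 list held 2 further *DICER1* peaks with no sgCtrl partner. The first, chr14:95157696-95157957, started 209 bp beyond the main peak on the side of the antisense gene *DICER1-AS1*, whose nearest start was 78 bp from the summit, and had 69 fragments and a −log10 p of 19.7. The second, chr14:95118161-95118412, lay in an exon 39808 bp along the gene and had 26 fragments over a local background of 5.41. Both had a fold enrichment in the middle of the list, 3.66 and 4.21.

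*DROSHA*, the nuclear miRNA endonuclease, stood much lower than *DICER1* in both groups. The sgCtrl peak at chr5:31532434-31532830 had a fold enrichment of 3.64 (percentile 46.6), and the overlapping sgSNHG1 peak at chr5:31532410-31533210 had 4.20 (percentile 58.2). The pileups were 27 and 35 fragments, and the interval of the relative pileup, 0.875 to 2.56 around 1.49, includes 1. The summit lay at -368 bp from the first *DROSHA* start in sgCtrl and at -948 bp in sgSNHG1, a shift of 580 bp that was the largest among the member pairs. Around the sgSNHG1 summit 12 of 18 stretches of 30 bases occurred 1 time in the reference genome and the most repeated one 26442 times, whereas all 18 around the sgCtrl summit occurred 1 time. A start of *C5orf22* lay 248 bp from the sgCtrl summit and 828 bp from the sgSNHG1 summit, so the mark cannot be assigned to *DROSHA* alone. A peak inside *DROSHA* at chr5:31531741-31532024 was called in sgSNHG1 only, with 32 fragments.

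The wider processing machinery was marked in both groups. All 18 of the other genes of miRNA processing examined (Microprocessor cofactors, export, Argonaute and TNRC6 proteins among them) had a peak in both lists, with 115 peaks in sgCtrl and 98 in sgSNHG1. Over all coding and long noncoding genes, 24055 of 38726 windows had a peak in both lists, and the ratio of all sgSNHG1 to sgCtrl peaks was 0.787. The median percentile of their highest peaks was 94.4 in sgCtrl and 94.0 in sgSNHG1 for the 18 genes. Each is the highest of a gene's peaks ranked among single peaks, and no such median over all genes is given. *AGO1* and *AGO3* had the same highest values and so are not separate. In 0 of the 18 did the highest fold enrichment differ by 1.5-fold or more.

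*LIN28B*, the let-7 inhibitor best known in NB, was strongly marked at its second annotated start in both groups. No peak covered the first start. The peak at the second start, chr6:104940453-104941533 in sgCtrl and chr6:104940511-104941553 in sgSNHG1, had a fold enrichment of 10.6 and 11.2, at percentiles 96.3 and 96.1. Its pileup was 132 fragments in sgCtrl and 177 in sgSNHG1, a relative pileup of 1.54 (1.22 to 1.94), the largest of the 17 member pairs. The peak also covers the start of the antisense gene *LIN28B-AS1*, 12 bp from the sgCtrl summit and 2 bp from the sgSNHG1 summit, so the 2 promoters cannot be told apart.

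This was the only member pair past 1.5-fold, beside 8.86% of all pairs that were at least 1.5-fold higher and 5.69% that were at least 1.5-fold lower. It no longer passed when the pairs within 5 Mb or the pairs near start sites were taken as the reference, since these had medians of 0.13 and 0.12 on the log2 scale. In fold enrichment the difference was 0.08 on the log2 scale, and the local background was 11.5 fragments in sgCtrl and 14.8 in sgSNHG1.

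A further *LIN28B* peak was called in sgSNHG1 only. It lay at chr6:104957581-104958311, with its summit 631 bp inside the third start, whose promoter with the E-box is shown above. It had a fold enrichment of 3.86 (percentile 49.5), 34 fragments over a local background of 8.06, and a −log10 p of 11.7. The nearest sgCtrl peak was 16.0 kb away.

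**Figure D2:**
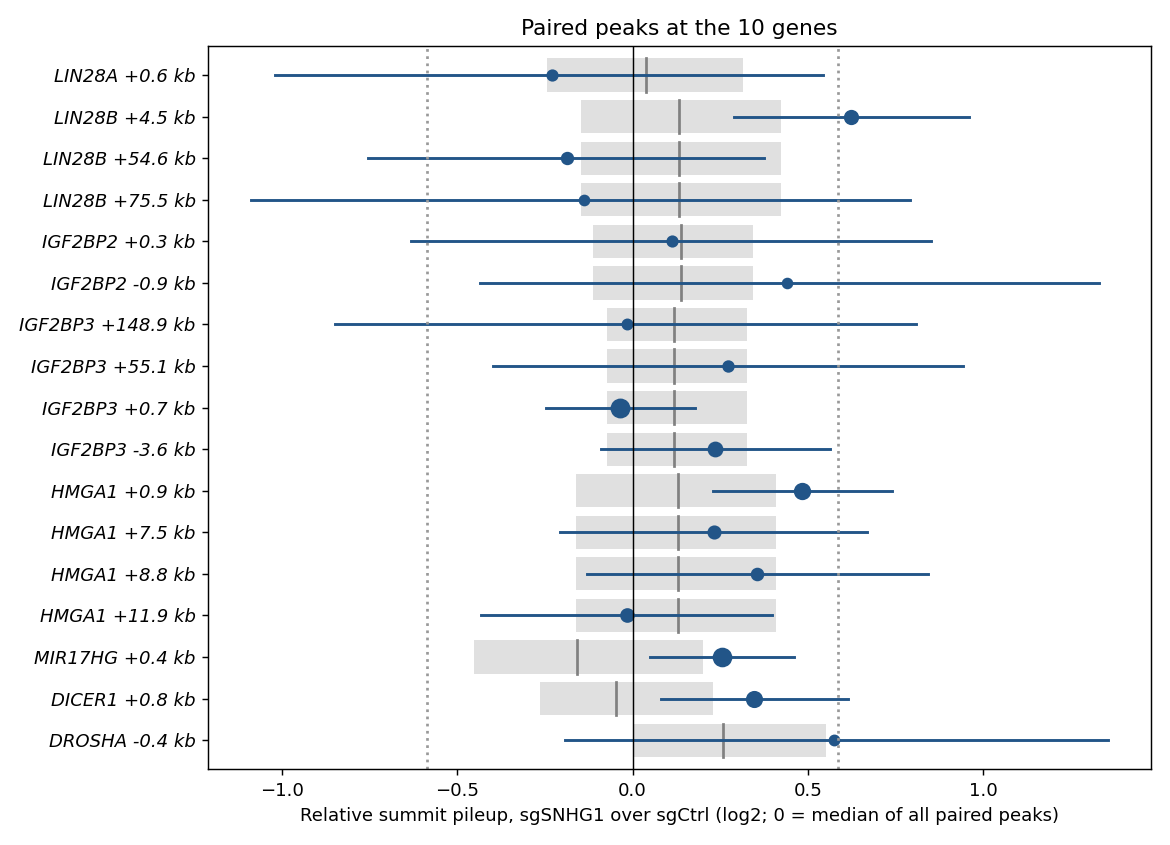
Relative summit pileup, sgSNHG1 over sgCtrl, of the 17 paired peaks (log2 scale, 0 being the median of all paired peaks), with 95% counting intervals and points sized by the sgCtrl pileup. Labels give the gene and the distance of the sgCtrl summit from the first start. Grey boxes are the quartiles and grey lines the median of all pairs within 5 Mb of the gene, and dotted lines mark 1.5-fold. The intervals of the start peaks of *LIN28B*, *HMGA1*, *MIR17HG* and *DICER1* lie above 0 and no interval lies below it.

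Further into *LIN28B*, 2 distal peaks were shared. The first, at chr6:104990980-104991665 in sgCtrl, had a fold enrichment of 8.54 in sgCtrl and 7.29 in sgSNHG1, with 64 and 49 fragments and a relative pileup of 0.879 (0.593 to 1.30). The second, at chr6:105011975-105012403 in sgCtrl, had 24 and 19 fragments (0.909, 0.471 to 1.73), and 19 was the lowest pileup of any member peak. Both intervals include 1.

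These 2 peaks hold stretches of repeated sequence. Of 18 stretches of 30 bases taken across the 200 bases around the summit, the median stretch occurred 2 and 359.5 times in the reference genome at the sgCtrl summits and 1.5 and 4.5 times at the sgSNHG1 summits, whereas every stretch of the peaks at the second start and of that at the third occurred 1 time. At the first distal peak, 7 of the 18 stretches in sgCtrl and 9 in sgSNHG1 occurred 1 time. The paired-end reads are longer than 30 bases, so a repeated stretch need not make a read ambiguous. Reads from other copies may still be placed there, which was not tested, so the values of the distal peaks are uncertain.

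*LIN28A*, the paralog, was weakly marked. Its start peak, chr1:26411275-26411614 in sgCtrl and chr1:26411261-26411481 in sgSNHG1, had a fold enrichment of 4.89 and 4.00. Its percentile was 73.1 in sgCtrl and 53.2 in sgSNHG1, the largest difference among the 10 genes. The pileups behind it were only 35 and 26 fragments, and the relative pileup was 0.853 with an interval of 0.493 to 1.46. The direction was not the same under every setting, since the log2 ratio of the highest peak was -0.29 in fold enrichment as reported, 0.15 with windows of 50 kb and 0.24 by pileup, where the peak beyond the end of the gene is the higher one in sgSNHG1. At a −log10 p of at least 10 the ratio was -0.445. The sgSNHG1 start peak, with a −log10 p of 9.91, then drops out, and the peak beyond the end is read in its place. A peak called in sgSNHG1 only, chr1:26432445-26432725, lay beyond the end of *LIN28A*, and its summit was 75 bp from a start of the neighbour *DHDDS*.

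Other genes of LIN28 action and let-7 turnover were also marked in both groups. Of 10 such genes, 9 had a peak in both lists and *TRIM71* had none, with 29 peaks in sgCtrl and 27 in sgSNHG1. Of the 12 let-7 loci, 7 had a peak within 10 kb in both lists, and *MIRLET7A2*, *MIRLET7C*, *MIRLET7D*, *MIRLET7F2* and *MIR98* had none that near in either. Over all coding and long noncoding genes, 24055 of 38726 windows had a peak in both lists. Those windows span whole gene bodies, whereas a let-7 window is a hairpin with 10 kb on either side, so the shares do not follow the same rule. Starts of the let-7 primary transcripts that lie further away were not counted. *MIRLET7A3* and *MIRLET7B* had the same highest values, so the 7 loci are not all separate places. Chosen after its value was seen, the peak beside *MIRLET7A1* and *MIRLET7F1*, which share 1 peak, had a fold enrichment of 23.0 in sgCtrl and 23.3 in sgSNHG1, above every member peak. In neither list of genes was any highest peak 1.5-fold different.

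The IGF2BP genes differed widely from each other in both groups. *IGF2BP3* carried the tallest pileup of all sgCtrl member peaks, *IGF2BP2* a modest start peak, and *IGF2BP1* 2 low peaks that were called in sgCtrl only.

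The *IGF2BP3* start peak, chr7:23468563-23470089 in sgCtrl and chr7:23468541-23470094 in sgSNHG1, had 400 and 340 fragments. The relative pileup was 0.976 (0.842 to 1.13), close to the median pair. The fold enrichment was 8.53 in sgCtrl and 6.98 in sgSNHG1, at percentiles 92.9 and 86.4. The local background was 46.0 and 47.9 fragments, the highest of any member peak and far above the genome-wide background of 4.89 and 4.66. In pileup alone the same peak was at percentile 99.4 in sgCtrl and 98.9 in sgSNHG1, so its rank depends on which height is read.

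A second *IGF2BP3* peak, at -3635 bp from the first start in sgCtrl, had 157 and 161 fragments (1.18, 0.939 to 1.48). It was 521 bp from a start of the unnamed gene ENSG00000289109. A shared peak in an exon 55079 bp along the gene had 39 and 41 fragments (1.21, 0.759 to 1.92). The peaks at 57348 bp, called in sgCtrl only with 29 fragments, and at 148941 bp, shared with 29 and 25 fragments, hold repeated stretches. The median 30-base stretch of the sgCtrl peaks there had 10.5 and 944.5 copies, and that of the sgSNHG1 peak at the latter place had 298. None of the 18 stretches at the latter place occurred 1 time in either list.

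*IGF2BP2* was marked on both sides of its start. The peak over the start, chr3:185824509-185825210 in sgCtrl, spanned 4 annotated starts and had a fold enrichment of 5.64 in sgCtrl and 5.13 in sgSNHG1, with 34 and 32 fragments. The peak before the start, chr3:185825766-185826057 in sgCtrl, had 3.70 and 4.09, with 22 and 26 fragments. The relative pileups were 1.08 (0.646 to 1.80) and 1.36 (0.739 to 2.51), and neither interval excludes 1.

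At *IGF2BP1*, the sgCtrl peak chr17:49013337-49014071 had its summit 16551 bp along the gene body. It covered an annotated start of *IGF2BP1*, 19 bp from the summit, and also a start of the unnamed gene ENSG00000251461. Its fold enrichment was 3.63 and its −log10 p 8.89. The other, chr17:49035496-49035787, had 3.93 and 9.72. Both held 26 fragments. Nothing was called in the window in sgSNHG1, and the nearest sgSNHG1 peaks were 68.1 kb and 90.2 kb from them. No peak covered the first start in either list.

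The genes that act with the IGF2BP proteins or in the m6A mark that they read were nearly all marked. Of 12 genes, all had an sgCtrl peak and 11 an sgSNHG1 peak, the exception being *METTL14*, with 40 peaks in sgCtrl and 36 in sgSNHG1. The median percentile of their highest peaks was 97.2 in sgCtrl and 96.8 in sgSNHG1, with no such median over all genes beside it. Of all gene windows with an sgCtrl peak, 8.62% had none in sgSNHG1.

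The HMGA genes stood apart from one another. *HMGA1* had the most peaks of the 10 genes in sgSNHG1 and, with *IGF2BP3*, in sgCtrl, and *HMGA2* had none in sgSNHG1. The *HMGA1* start peak, chr6:34237129-34238365 in sgCtrl and chr6:34237063-34238483 in sgSNHG1, had a fold enrichment of 7.09 and 8.52 and 234 and 285 fragments. Its relative pileup was 1.40 (1.17 to 1.67), and its percentile was 88.9 in sgCtrl and 91.3 in sgSNHG1. A peak before the start, chr6:34234871-34236026, was called in sgCtrl only, with 88 fragments over a high local background of 29.8. It was the tallest pileup among the peaks without a partner.

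Around the 3′ end of *HMGA1*, low peaks followed one another in both lists. sgCtrl had 2 peaks there and sgSNHG1 had 5. The sgCtrl peaks had 89 and 70 fragments and a fold enrichment of 2.68 and 2.20, and the sgSNHG1 peaks had 74 to 91 fragments and 2.44 to 2.80. The 2 sgSNHG1 peaks without a partner, chr6:34245903-34246145 and chr6:34246982-34247259, were 207 bp and 1249 bp from the nearest sgCtrl peak. The 30-base stretches of some of these peaks occurred up to 5 times in the reference. The last peak of the window, 11.9 kb along, had its summit 201 bp from a start of the neighbour *SMIM29* and held 108 and 93 fragments (0.989, 0.741 to 1.32).

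*HMGA2*, the let-7 target best known of the pair, had a single low peak in sgCtrl, chr12:65825475-65825810, 454 bp from one of its starts. It had 22 fragments over a local background at the genome-wide level of 4.89, together with a fold enrichment of 3.90 and −log10 p at 8.58. The nearest sgSNHG1 peak was 305 kb away. The lowest pileup of any peak in the sgSNHG1 list was 18 fragments.

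The 2 genes that lost their peaks, *IGF2BP1* and *HMGA2*, are read against 8.62% of the 26325 gene windows with an sgCtrl peak that had none in sgSNHG1. None of the 8 genes with an sgSNHG1 peak gained a first peak, beside 4.29% of the 25134 windows with an sgSNHG1 peak. These calls depend on the threshold, since every sgCtrl peak at *IGF2BP1*, *HMGA2* and *DROSHA* had a −log10 p under 10. At a −log10 p of at least 10, and with lists of equal size, *IGF2BP1* and *HMGA2* had no peak in either list. *DROSHA* then had peaks in sgSNHG1 only. Of the 8 sgCtrl member peaks with a −log10 p under 10, 4 had no partner, beside 75.5% of all such sgCtrl peaks. Of the 2 such sgSNHG1 member peaks, 0 had no partner, beside 40.8% of all such sgSNHG1 peaks, and the 7 sgSNHG1 member peaks without a partner had a −log10 p of at least 10.4.

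Of 20 genes listed as let-7 targets, which include 8 of the 10 genes, 18 had an sgCtrl peak and 16 an sgSNHG1 peak. The 2 that lost theirs were again *IGF2BP1* and *HMGA2*, and *MYC* and *CCND2* had no peak in either list. Among the other let-7 targets and members alike, no highest peak differed by 1.5-fold. Of the 2 paralogs of the miR-17-92 cluster, that in *MCM7* was read at its host gene, which had peaks in both lists (3 and 6). The other was read at the hairpin *MIR106A*, with no peak within 10 kb in either list. A gene body and a hairpin are unlike windows, so these values are not set against each other.

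Over the 8 genes with a peak in both lists, the percentile of the highest peak changed by a median of -0.33 (range -19.9 to 11.6), beside -0.95 over 24055 gene windows. The percentiles come from lists of unequal length, and at *LIN28B* the percentile was lower in sgSNHG1 although the fold enrichment was higher. With lists of equal size the median change was -0.03 over 7 genes, and with the pileup in place of the fold enrichment it was 0.29, so its direction depends on the measure. None of the 8 genes passed 1.5-fold in fold enrichment, beside 1.78% of windows at least 1.5-fold higher and 2.00% at least 1.5-fold lower. The median log2 ratio of fold enrichment was -0.01 at the 8 genes and 0.01 over all windows.

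In relative pileup, 11 of the 17 pairs lay above the median pair and 6 below it, with a median of 0.24 on the log2 scale and a range of -0.23 to 0.62. The counting interval lay above the median pair in 4 pairs, at *LIN28B*, *HMGA1*, *MIR17HG* and *DICER1*, beside 14.6% of all pairs. It lay below in 0, beside 9.03% of all pairs. These 4 are all tall peaks at starts, and the part of height and place in this was not tested. Of the 5 member pairs near a start of their own gene with at least 100 fragments in sgCtrl, 4 had an interval above the median pair. The fifth was the *IGF2BP3* start peak. Over the whole lists, 28.5% of 7701 pairs with at least 100 sgCtrl fragments near a start of any gene had such an interval. By that wider rule 7 member pairs qualify, and 4 had it. Among these 7701 pairs, the relative pileup was at percentile 95.4 for *LIN28B*, 87.6 for *HMGA1*, 75.5 for *DICER1*, 65.8 for *MIR17HG* and 39.0 for *IGF2BP3*.

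Peaks near starts as a class stood higher in sgSNHG1 than the others, with a median relative pileup of 0.12 against -0.11 on the log2 scale over all pairs. The 9 member pairs near a start of their own gene had a median of 0.35 and the 8 others 0.11. Over all pairs a start of any gene counted, so the medians do not follow the same rule. Of the 9, 6 were above the median of all pairs near starts. The surroundings differed as well, since the medians of all pairs within 5 Mb of the genes ranged from -0.16 at *MIR17HG* to 0.26 at *HMGA2* and *DROSHA*. Against the median of their own surroundings, 10 of the 17 member pairs were higher in sgSNHG1 and 7 lower. The part of the surroundings in the members' values was not tested.

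**Figure D3:**
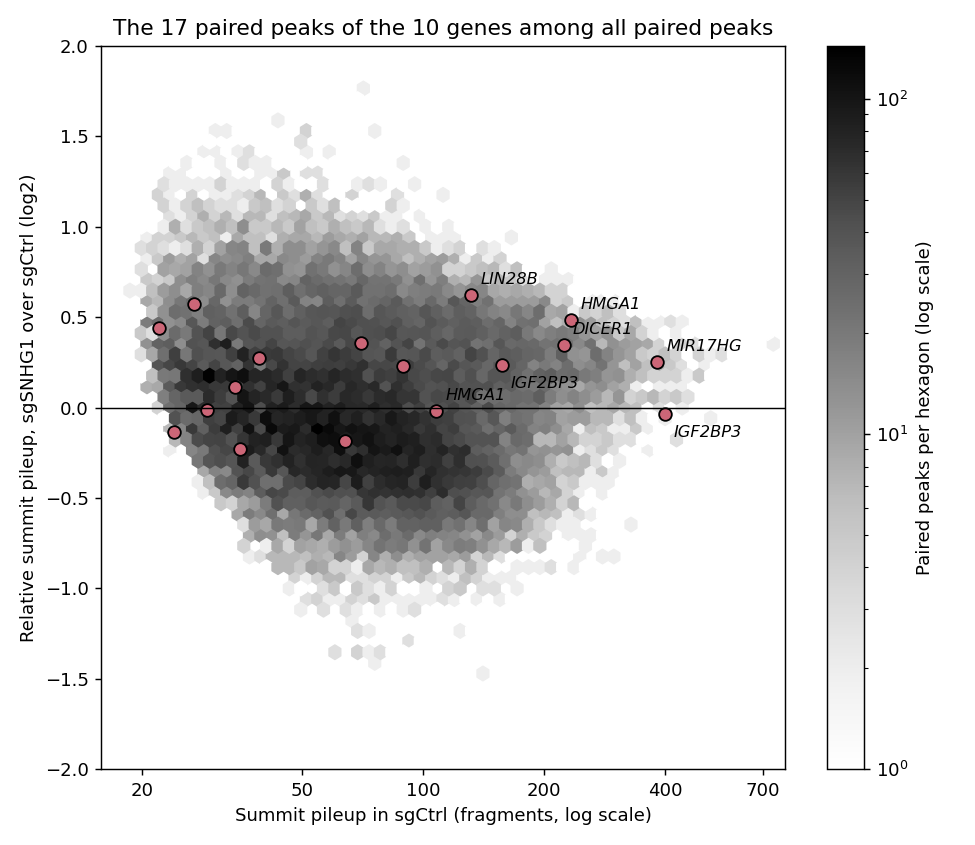
Relative summit pileup, sgSNHG1 over sgCtrl (log2 scale), against the sgCtrl summit pileup (fragments, log scale) of all paired peaks (grey hexagons, darker where there are more, with 237 of 38601 outside the axes) and of the 17 member pairs (red points). Names are given for member pairs with at least 100 sgCtrl fragments. The start peaks of *LIN28B* and *HMGA1* sit at percentiles 95.4 and 87.6 of the start pairs with at least 100 sgCtrl fragments, and the *IGF2BP3* peak with 400 fragments sits at -0.04.

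The member peaks were richer in GC and CpG than the lists they come from. Over 500 bp around the summit, their median GC content was 68.7% in sgCtrl and 63.8% in sgSNHG1, beside 62% and 62.4% over all peaks. Near starts the medians were 74.7% and 70.2%, and elsewhere 63.8% and 62.1%. The 4 peaks near starts that were called in sgSNHG1 only had 40.4% at the third start of *LIN28B*, 46% and 65% at *DICER1* and 54% at *DROSHA*. Searched on both strands, the E-box CACGTG occurred in 3 of 22 sgCtrl peaks (13.6%) and 3 of 25 sgSNHG1 peaks (12%), beside 10.4% and 10.2% of all peaks. The GATA motif AGATAA occurred in 1 peak of each list, 4.55% and 4%, beside 6.61% and 7.10% of all peaks. The HAND motif CATCTG occurred in 6 peaks of each, 27.3% and 24%, beside 28.5% and 26.8%.

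Shared peaks mostly kept their place. The summits of the 17 pairs differed by a median of 47 bp, and 11 of them by at most 100 bp. Member peaks were longer than other peaks, with a median length of 688 bp in sgCtrl and 558 bp in sgSNHG1 beside 403 bp and 392 bp over all peaks. Of the member peaks, 12 in sgCtrl and 13 in sgSNHG1 lay within 3 kb of a start of their own gene. By summit, 13 sgCtrl peaks lay in introns, 4 in exons and 5 in the flanks of the genes, and 14, 5 and 6 did so in sgSNHG1.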

How the data were processed

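The data were H3K27ac ChIP-seq profiles of 2 sgCtrl and 2 sgSNHG1 samples, grouped by their labels. Per the methods, adaptors were removed (cutadapt, per the labels), paired-end reads were aligned to GRCh38 with BWA, and MACS2 called peaks on both samples of a group combined, at a p-value of 1e-06, with duplicates kept. No input library is named, and the MACS2 version is not given in the sources used here. The deposited lists hold, for each peak, a fold enrichment (summit over local background, a ratio). The −log10 p deposited beside it is the peak caller's Poisson p-value, and the lists also hold a q-value and a display score that were not used.

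The depth per sample is unknown, and with 1 pooled list per group no test was made. Genes and starts came from GENCODE release 44, and sequences and promoters from RefSeq and hg38. Pileup was recovered from fold enrichment and −log10 p under a Poisson model with a pseudocount of 1, and came out whole within 0.01 for 99.9% of the peaks of each list. Member peaks within 3 kb of a start of their own gene were counted as promoter peaks. Over all pairs, a start of any coding or long noncoding gene within 3 kb counted. Intervals were 95% Wilson for shares and exact for pileup ratios. Copies of 30-base stretches were counted on both strands of the reference. Tools were scipy 1.17.1, pandas 2.3.3, numpy 2.4.6, matplotlib 3.10.9 and Python 3.11.15, and the computations were tested on simulated data, with overlaps checked against bedtools 2.31.1. The 10 genes were each described. For the other gene lists, counts and median percentiles were given, the few genes without a peak were named, and any past 1.5-fold would have been. The members and gene lists were chosen with earlier results of these data known. Alternatives were a stricter threshold, lists of equal size, other windows, merged peaks, other overlaps and other measures of height. Added after seeing the data were single-copy peaks only and other references for the pileup.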

Additional observations from a re-analysis of the deposited data

How the results depend on the processing

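No paired analysis was possible because both samples of a group were combined before peaks were called, and for the same reason no sample could be left out in turn, so neither was run. The peak number ratio of sgSNHG1 to sgCtrl at the 10 genes, 1.14, was 1.79 with lists of equal size (14 against 25 peaks), 0.972 with 50 kb windows and 0.9 with peaks within 1 kb merged. The ratio of covered bases, 1.01, was 0.997 without a flank and 0.928 with 50 kb. The share of sgCtrl peaks with a partner, 77.3%, was 92.9% with lists of equal size, and the share of sgSNHG1 peaks with one, 72%, was 52% when 50% of both peaks had to overlap. The median percentile change, -0.33, was 0.29 by pileup. By pileup 1 gene (*LIN28B*, 0.62 on the log2 scale) passed 1.5-fold instead of 0. The count of paired peaks past 1.5-fold, 1, was 0 against the pairs within 5 Mb and 0 against the pairs near starts. The causes were not tested. Among single genes, the log2 fold of *LIN28B*, *HMGA1* and *DROSHA* was above 0 and that of *IGF2BP3* below it under every alternative run for them. Most of these alternatives read the same peaks again and returned the same value, so the shared sign is largely built in. The counting intervals of the relative pileup at *DROSHA* and at the *IGF2BP3* start peak include 1. The sign was not stable at the other 4 genes measured in both lists, where it was above 0 in 2 of 8 alternatives for *LIN28A*, *MIR17HG* and *DICER1* and in 1 of 8 for *IGF2BP2*. The 7 of 17 pairs with under 50 sgCtrl fragments had wide counting intervals, which all include 1.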
